A study of Mus musculus with 14 samples.

Results

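Histone H3.3 is the H3 variant that is placed into chromatin outside DNA replication, and it needs dedicated chaperones to get there. The HIRA complex, built of HIRA, an ubinuclein (UBN1 or UBN2) and CABIN1, places H3.3 at genes and at gaps in the nucleosome array, and receives H3.3-H4 dimers from the histone chaperone ASF1A. DAXX works with the remodelling ATPase ATRX and places H3.3 at pericentromeres, telomeres and silenced repeats, while DEK is a chromatin protein that also acts as an H3.3 chaperone and shapes how H3.3 is shared between the other routes. The genes described here are the 8 that encode these factors, Hira, Ubn1, Ubn2, Cabin1, Asf1a, Daxx, Atrx and Dek, taken by symbol from 35449 mouse genes with a transcript in the files. They were chosen for their function, with earlier results of these data known, and the rule used no value of these libraries.

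Their transcripts were counted in 14 primary mouse lines, grown from embryos at E13.5, each giving 1 library. Wild-type (WT) lines had an intact H3f3a gene, 1 of the genes that encode H3.3, and KO lines carried the H3f3a allele that the series title calls knockout-first, an allele type that usually holds a gene-trap cassette. There were 3 WT and 5 KO lines of embryonic fibroblasts (MEFs), grown from body tissue without the internal organs, and 3 WT and 3 KO lines of neurospheres, floating cultures of neural stem and precursor cells from the head. No line was treated, and strain, sex and passage number are not given in the labels.

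Counts assigned to genes ran from 2080798 to 3296178 per library in MEFs and from 1669406 to 2874677 in neurospheres, and mitochondrial transcripts took 5.27% to 6.15% and 12.9% to 16.8% of them. The 10 fibroblast markers summed to 13514 to 21798 CPM (counts per library scaled to a common size) in MEF lines and to 40.3 to 168 CPM in neurosphere lines, and the 10 neural stem and precursor markers to 369 to 518 and 5246 to 8773 CPM, so each set of lines carried the markers of its label. The 9 macrophage and blood markers summed to 18.0 to 180 CPM in MEFs and to at most 2.48 CPM in neurospheres, and their part in the differences below was not tested. H3f3a stood at 847 to 1427 CPM in WT and 7.29 to 18.8 CPM in KO MEFs, and at 1970.0 to 2417 CPM in WT and 26.3 to 70.9 CPM in KO neurospheres, so every KO line was below every WT line. WT MEFs 2, KO MEFs 3 and KO neurospheres 2 stood apart from the other lines of their cell type, with a median correlation of log2 CPM under 0.88 (0.866, 0.877 and 0.850). In bulk RNA fewer cells that express a gene and less RNA per cell cannot be told apart.

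Promoters are shown for Dek, the member that was lower in neurospheres, for Asf1a, which was higher there, and for Asf1b, the paralog of Asf1a whose product serves the replication-coupled route, because these genes moved in opposite directions between the cell types. Each is the RefSeq window of 300 bases (build GRCm38.p6), 250 before and 50 after the transcription start, read along the gene. Capitals mark CCAAT boxes and cell cycle homology regions (CHR, TTTGAA), elements known from promoters of genes that peak in dividing cells, on either strand (ATTGG and TTCAAA on the other). They come from chr13:47106172-47106471 on the minus strand, chr10:53596711-53597010 on the plus strand and chr8:83955444-83955743 on the plus strand.
Dek: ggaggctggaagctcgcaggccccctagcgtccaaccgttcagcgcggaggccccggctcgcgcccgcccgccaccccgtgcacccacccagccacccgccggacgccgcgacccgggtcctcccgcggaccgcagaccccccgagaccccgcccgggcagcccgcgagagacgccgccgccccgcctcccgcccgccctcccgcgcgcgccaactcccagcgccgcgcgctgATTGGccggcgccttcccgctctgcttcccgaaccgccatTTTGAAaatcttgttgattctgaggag
Asf1a: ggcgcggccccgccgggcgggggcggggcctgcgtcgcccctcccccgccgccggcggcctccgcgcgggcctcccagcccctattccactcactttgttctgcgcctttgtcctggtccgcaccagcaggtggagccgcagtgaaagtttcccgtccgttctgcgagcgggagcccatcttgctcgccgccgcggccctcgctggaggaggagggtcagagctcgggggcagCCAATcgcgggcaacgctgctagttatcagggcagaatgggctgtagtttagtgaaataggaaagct
Asf1b: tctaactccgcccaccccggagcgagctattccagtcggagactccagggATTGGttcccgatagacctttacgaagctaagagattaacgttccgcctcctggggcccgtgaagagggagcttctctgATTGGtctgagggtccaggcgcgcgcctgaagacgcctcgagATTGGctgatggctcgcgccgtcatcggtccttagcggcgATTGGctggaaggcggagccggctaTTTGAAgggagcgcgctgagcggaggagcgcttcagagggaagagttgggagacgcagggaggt
The Dek window held 1 CCAAT box and 1 CHR, the Asf1a window 1 CCAAT box and no CHR, and the Asf1b window 4 CCAAT boxes and 1 CHR. A CCAAT box stood in 37.4% and a CHR in 17.9% of the 32851 RefSeq promoter windows of this length. All 8 members had a window, Daxx 3 overlapping ones and the others 1 each. A CCAAT box was in the windows of Asf1a, Cabin1, Dek, Ubn1 and Atrx and in 1 of the 3 of Daxx, and a CHR in those of Ubn2 and Dek. Atrx, higher in neurospheres, had 4 CCAAT boxes, as many as Asf1b. Cabin1, also higher there, and Ubn1 had 2 each, and Ubn2, with its CHR, was higher there too. Whether the motifs go with the direction between the cell types was not tested. Of the other 4 motifs searched on both strands, the E2F forms TTTCCCGC (1.07% of windows) and TTTGGCGC (0.514%) were in no member window. The cyclic AMP response element TGACGTCA (1.79%) was in those of Ubn1 and Ubn2. The GC box GGGCGGGG (17.6%) was in those of Asf1a, Dek and Hira and in at least 1 of those of Daxx. These are matches of letters and not measured binding.

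None of the 8 chaperone genes passed the test between KO and WT lines in either cell type. H3f3a, the targeted gene, fell by 6.09 on the log2 scale in MEFs (edgeR quasi-likelihood test, Benjamini-Hochberg adjusted p = 0.000115) and by 5.37 in neurospheres (adjusted p = 0.00754). Its paralog H3f3b, which encodes the same protein, had log2 values of -0.02 and 0.17 (edgeR adjusted p = 1.00 and 0.999). In MEFs 0 of 8 members passed an adjusted p of 0.05, against 0.00927% of the 10785 genes tested, which is H3f3a alone. In neurospheres 0 of 8 passed, against 0.00941% of 10624 genes, again H3f3a. With all 14 lines and cell type as a term, 0 of 8 passed against 0.00826% of 12113 genes, and in the interaction test, whether the KO difference differed between the cell types, 0 of 8 against 0% of 12113 genes. No member reached an unadjusted p under 0.05 in any of these 4 edgeR tests, where 175, 227, 268 and 366 genes did, and DESeq2 called no member in any of them (1, 7, 1 and 3 genes called in all). For all 8 members the KO and WT lines overlapped in each cell type, and how many of all genes did so was not counted.

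The intervals say how large a difference these lines could still hide. Over all 14 lines, the 95% intervals of the 8 members together ran from 0.730-fold to 1.56-fold of the WT level. The interval of Atrx was the narrowest, from -0.23 to 0.21 on the log2 scale around -0.01. The intervals of Hira (0.03, from -0.34 to 0.40), Daxx (-0.04, from -0.36 to 0.29) and Dek (0.03, from -0.36 to 0.43) were centred near 0 as well. Cabin1 had the largest value, 0.28 (from -0.07 to 0.64), followed by Asf1a at 0.22 (from -0.20 to 0.64), Ubn1 at -0.19 (from -0.45 to 0.06) and Ubn2 at 0.12 (from -0.22 to 0.47). In MEFs alone the intervals lay between 0.696-fold and 1.58-fold, and in neurospheres, with fewer lines, between 0.581-fold and 2.13-fold. The median log2 value of the 8 members was 0.07 in MEFs and 0.01 in neurospheres, and that of all genes tested was -0.0013 and 0.011. Leaving out the 3 lines that stood apart, no member passed either.

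**Figure D1:**
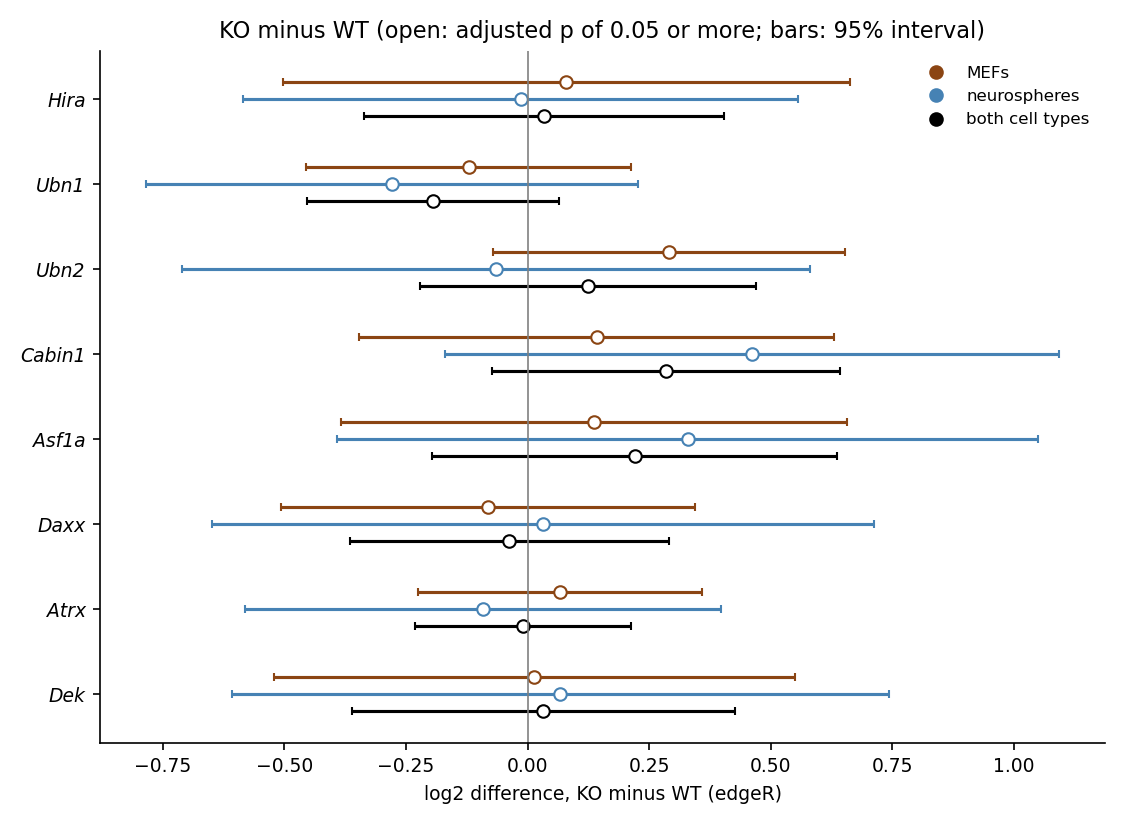
Log2 difference of KO minus WT lines for the 8 chaperone genes (horizontal axis) in MEFs (3 WT and 5 KO lines), in neurospheres (3 and 3) and over both with cell type as a term. Points are edgeR estimates, open because no adjusted p was under 0.05, and bars are 95% intervals, all of which include 0.

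The cell types differed far more than the genotypes. In WT lines 5 of 8 members passed between neurospheres and MEFs, against 41.6% of the 11080 genes tested, and in KO lines, which share no library with the WT comparison, the same 5 genes passed in the same directions, against 51.6% of 11413 genes. Ubn2, Cabin1, Asf1a and Atrx were higher in neurospheres and Dek was lower, while Hira, Daxx and Ubn1 did not pass. Among all genes tested, 20.8% were higher and 20.8% lower in WT lines, and 25.4% higher and 26.2% lower in KO lines. The median log2 difference of the members was 0.56 in WT and 0.38 in KO lines, and that of all genes tested 0.02 and -0.01. All 6 neurosphere lines lay above all 8 MEF lines for 3 of 8 members, Ubn2, Cabin1 and Atrx, and below them for none. Of 12113 genes, 2203 were separated upward and 2253 downward, 36.8% in 1 direction or the other.

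**Figure D2:**
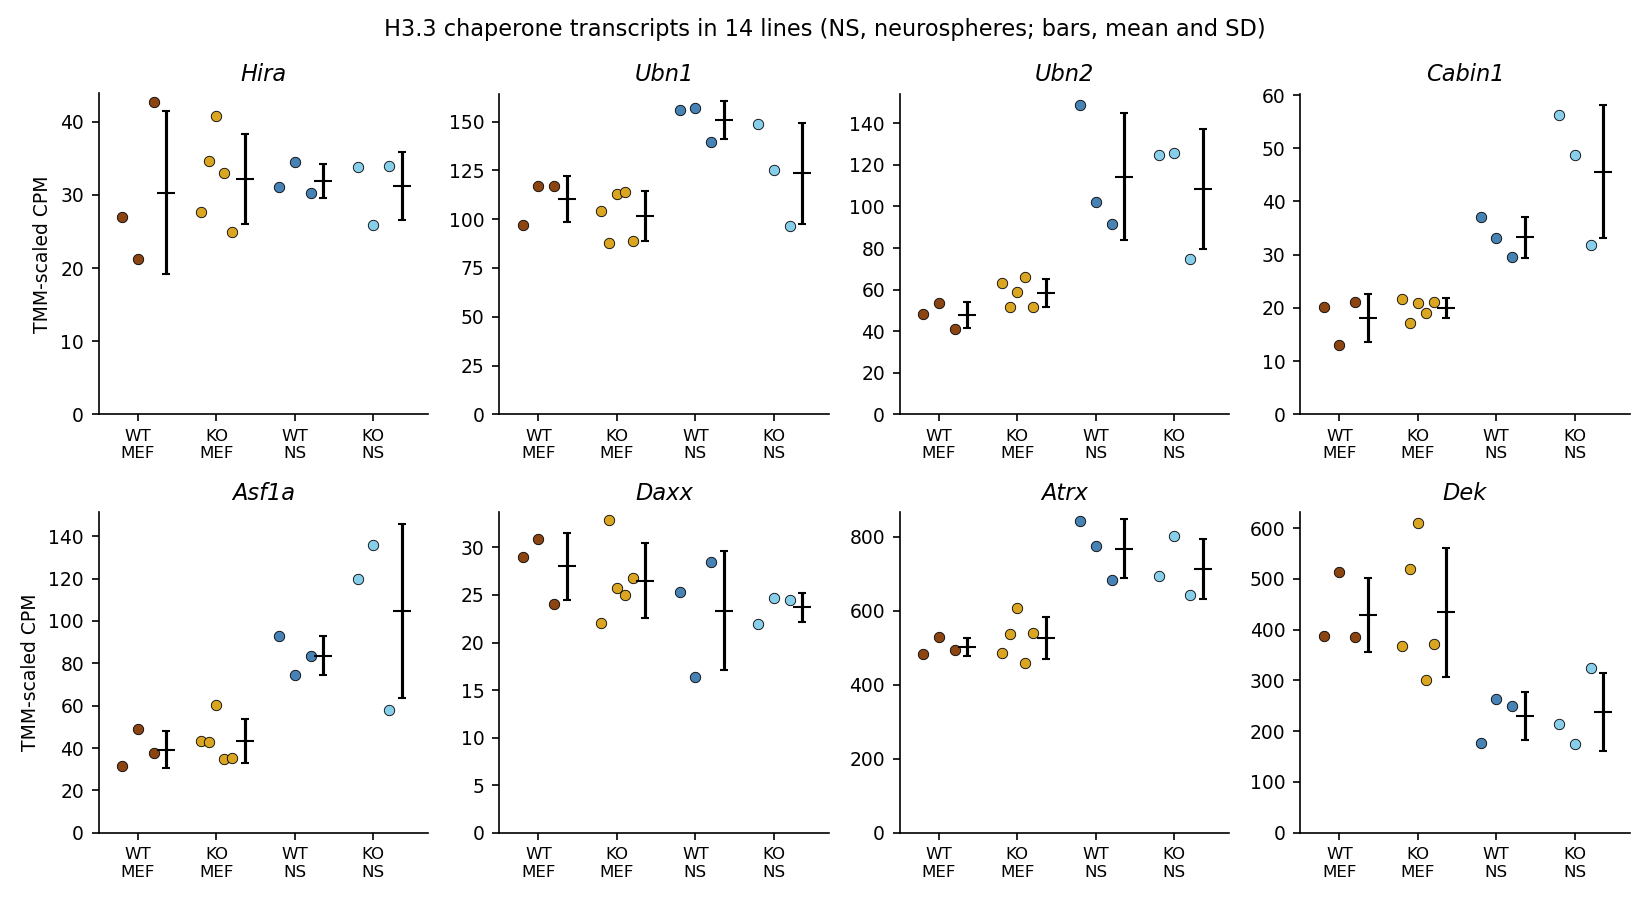
Level of each chaperone transcript (vertical axis, TMM-scaled CPM, starting at 0) in every line, by group, with the mean and SD beside the points. The neurosphere points stand clear above the MEF points for Ubn2, Cabin1 and Atrx, 1 KO neurosphere line returns to the MEF range for Asf1a and Dek, and the groups overlap for Hira and Daxx.

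Hira (ENSMUSG00000022702.16, chromosome 16, 18877037 to 18970309, plus strand; all positions are GRCm38) encodes the scaffold of the HIRA complex. Its level was 27.0, 21.2 and 42.7 CPM in WT MEFs 1 to 3 and 27.6, 34.6, 40.8, 33.0 and 24.9 CPM in KO MEFs 1 to 5. In neurospheres it was 31.0, 34.6 and 30.2 CPM in the WT and 33.9, 25.9 and 34.0 CPM in the KO lines. The 6 neurosphere values all lay inside the MEF range, and the widest spread was within WT MEFs, whose mean was 30.3 ± 11.1 CPM (SD, n = 3). The log2 difference of neurospheres minus MEFs was 0.09 in WT (95% interval from -0.63 to 0.81, edgeR adjusted p = 0.831) and -0.02 in KO lines (from -0.52 to 0.49, adjusted p = 0.956). Each value rests on 43 to 140 counts.

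Ubn1 and Ubn2 encode the ubinucleins, the subunits through which the HIRA complex recognises H3.3. Ubn2 (ENSMUSG00000038538.17, chromosome 6, 38433950 to 38524825, plus strand) stood at 48.0, 53.6 and 41.2 CPM in WT MEFs and at 63.2, 51.7, 58.8, 66.3 and 51.7 CPM in KO MEFs. WT neurospheres 1 to 3 had 149, 102 and 91.7 CPM and KO neurospheres 1 to 3 had 125, 126 and 74.9 CPM. The lowest neurosphere line, KO neurospheres 3, was still above the highest MEF line. Ubn2 rose 2.44-fold from WT MEFs to WT neurospheres (log2 1.29, SE 0.25, edgeR adjusted p = 0.00563) and 1.88-fold from KO MEFs to KO neurospheres (log2 0.91, SE 0.21, edgeR adjusted p = 0.00472).

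Ubn1 (ENSMUSG00000039473.8, chromosome 16, 5050057 to 5086289, plus strand) gave 96.8, 117 and 117 CPM in WT and 104, 87.7, 113, 114 and 89.1 CPM in KO MEFs. It gave 156, 157 and 139 CPM in WT and 149, 125 and 96.6 CPM in KO neurospheres. Of the 6 neurosphere lines 5 were above all MEF lines, and KO neurospheres 3, at 96.6 CPM, lay within the MEF range. The differences were in the direction of Ubn2 but smaller, with log2 values of 0.47 in WT (edgeR adjusted p = 0.0756) and 0.30 in KO lines (edgeR adjusted p = 0.206). With all 14 lines and genotype as a term, a fit added after the data were seen, the value was 0.36 and passed (edgeR adjusted p = 0.0179). Ubn1 passed in 2 of the 18 alternatives of the WT comparison, the other being reads at the main 3′ end. With the level of cycling genes, described below, added to the fit of all 14 lines, Ubn1 did not pass.

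Cabin1 (ENSMUSG00000020196.10, chromosome 10, 75646112 to 75764341, minus strand) encodes the third HIRA complex subunit, first known as an inhibitor of calcineurin. Its level was 20.2, 12.9 and 21.0 CPM in WT MEFs and 21.8, 17.1, 20.9, 19.1 and 21.1 CPM in KO MEFs. It was 37.1, 33.2 and 29.5 CPM in WT and 56.2, 48.7 and 31.9 CPM in KO neurospheres. Again no neurosphere line overlapped with the MEF lines. Cabin1 rose 1.86-fold in WT (log2 0.90, SE 0.29, edgeR adjusted p = 0.0370) and 2.31-fold in KO lines (log2 1.21, SE 0.23, edgeR adjusted p = 0.00174). The WT call did not survive the loss of any line, with adjusted p between 0.0540 and 0.103 and log2 values of 0.69 to 1.02, whereas the KO call passed in all 8 such fits.

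Asf1a (ENSMUSG00000019857.7, chromosome 10, 53596757 to 53609225, plus strand) encodes the chaperone that hands H3.3-H4 dimers to HIRA, and overlaps Mcm9 on the other strand. In MEFs it stood at 31.4, 48.9 and 37.5 CPM in WT and 43.5, 42.8, 60.2, 35.0 and 35.1 CPM in KO lines. In neurospheres it stood at 93.1, 74.3 and 83.5 CPM in WT and 119.8, 136 and 58.1 CPM in KO lines. KO neurospheres 3 fell inside the MEF range, just under KO MEFs 3, and the other 5 neurosphere lines were above every MEF line. Asf1a rose 2.16-fold in WT (log2 1.11, SE 0.24, edgeR adjusted p = 0.00842) and 2.45-fold in KO lines (log2 1.29, SE 0.29, edgeR adjusted p = 0.00446).

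The paralog Asf1b, no member but the other mammalian ASF1 gene, went the other way. MEF lines had 26.2 to 51.7 CPM, WT neurospheres 1.15, 2.80 and 6.40 CPM, KO neurospheres 1 1.24 CPM and KO neurospheres 3 15.1 CPM. KO neurospheres 2 had no Asf1b count, which allows up to 1.80 CPM (3 counts, counting error only). Asf1b fell by 3.27 on the log2 scale in WT (edgeR adjusted p = 0.00266) and by 2.67 in KO lines (edgeR adjusted p = 0.0202), the latter with adjusted p = 0.0670 and a fall of 2.21 without KO neurospheres 1. Thus every neurosphere line was below every MEF line for Asf1b, while 5 of 6 were above every MEF line for Asf1a.

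Daxx (ENSMUSG00000002307.16, chromosome 17, 33909414 to 33915590, plus strand) encodes the H3.3-specific chaperone of the heterochromatin route. It gave 29.0, 30.9 and 24.1 CPM in WT and 22.1, 32.9, 25.7, 25.0 and 26.8 CPM in KO MEFs. It gave 25.3, 16.4 and 28.4 CPM in WT and 21.9, 24.6 and 24.5 CPM in KO neurospheres. The groups overlapped throughout, and only WT neurospheres 2 and KO neurospheres 1 lay under the lowest MEF line. The log2 difference between the cell types was -0.23 in WT (95% interval from -0.90 to 0.43, edgeR adjusted p = 0.542) and -0.14 in KO lines (from -0.61 to 0.32, edgeR adjusted p = 0.593). Each value rests on 35 to 96 counts.

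Atrx (ENSMUSG00000031229.16, chromosome X, 105797615 to 105929403, minus strand) encodes the remodelling ATPase that partners DAXX. MEF levels were 482, 529 and 493 CPM in WT and 485, 537, 607, 459.7 and 541 CPM in KO lines. Neurosphere levels were 843, 775 and 684 CPM in WT and 693, 802 and 642 CPM in KO lines, all above the highest MEF line. The step was the smallest of the 4 rises, 1.55-fold in WT (log2 0.64, SE 0.19, edgeR adjusted p = 0.0297) and 1.37-fold in KO lines (log2 0.46, SE 0.16, edgeR adjusted p = 0.0327). Both calls were near the threshold, since only 2 of 6 WT fits and 2 of 8 KO fits with 1 line left out passed, with log2 values of 0.55 to 0.72 and 0.37 to 0.54 and adjusted p up to 0.118 and 0.0898. Because Atrx is X-linked and the labels give no sex, the level of the Y-linked gene Ddx3y was also entered as a covariate, which gave 0.63 in WT lines (edgeR adjusted p = 0.0597) and 0.45 in KO lines (edgeR adjusted p = 0.0448). Ddx3y stood at 128 to 217 CPM in WT MEFs 1, KO MEFs 1 and 5, WT neurospheres 1 and KO neurospheres 3. In every other line it was at most 1.20 CPM.

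Dek (ENSMUSG00000021377.15, chromosome 13, 47084775 to 47106201, minus strand, overlapping Kdm1b on the other strand) was the member with lower levels in neurospheres. It stood at 388, 514 and 385 CPM in WT and 367, 520.1, 609, 300.5 and 372 CPM in KO MEFs. WT neurospheres had 176, 264 and 249.6 CPM and KO neurospheres 215, 176 and 324 CPM. KO neurospheres 3, at 324 CPM, lay above KO MEFs 4, and the other 5 neurosphere lines lay below every MEF line. Dek fell by 0.88 on the log2 scale in WT (SE 0.24, edgeR adjusted p = 0.0203) and by 0.85 in KO lines (SE 0.28, edgeR adjusted p = 0.0305). Without WT neurospheres 1 the WT fall was 0.73 (edgeR adjusted p = 0.0595), and without KO neurospheres 2, which stood apart, the KO fall was 0.65 (edgeR adjusted p = 0.115). The KO fall also did not pass without KO MEFs 2 or KO neurospheres 1 (adjusted p = 0.0678 and 0.103).

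**Figure D3:**
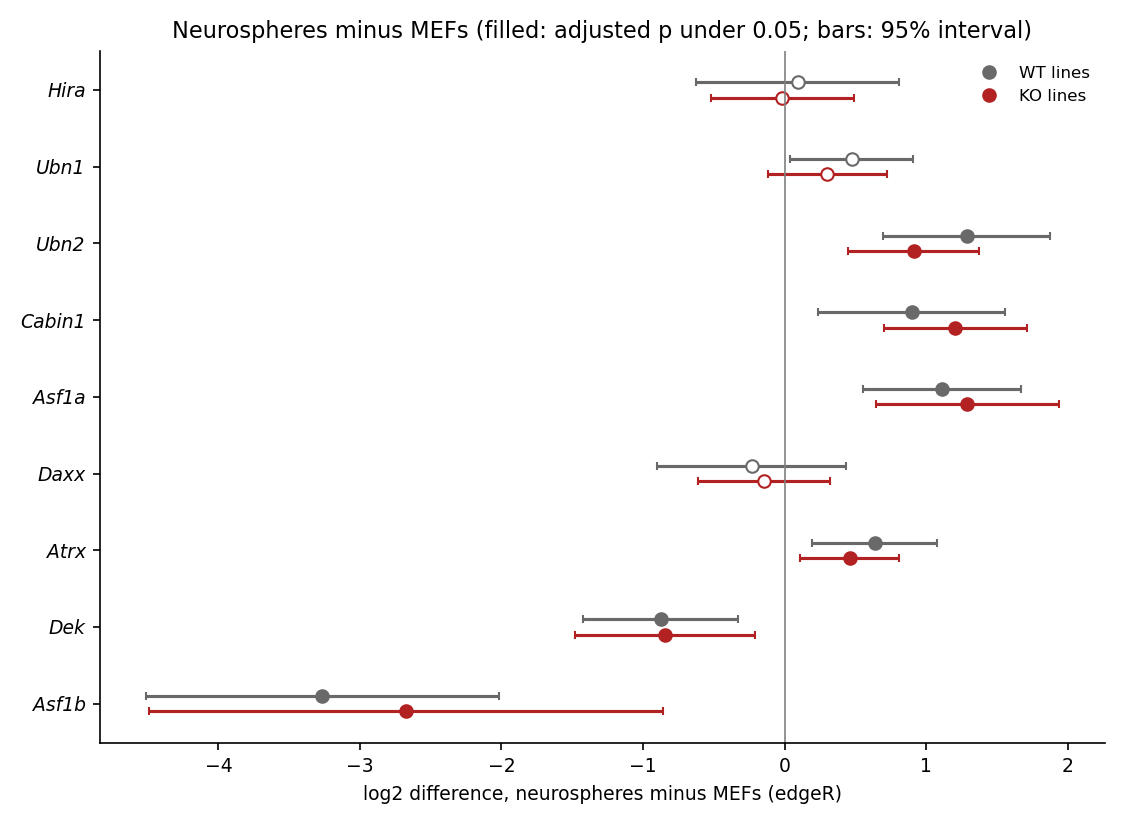
Log2 difference of neurospheres minus MEFs (horizontal axis) for the 8 chaperone genes and Asf1b, in WT lines (3 and 3) and in KO lines (3 and 5), as edgeR estimates with 95% intervals. Filled points passed an adjusted p of 0.05, and Ubn2, Cabin1, Asf1a and Atrx lie to the right of 0, Dek and Asf1b to the left, in both genotypes.

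The steps were recomputed without the lines that stood apart. Without WT MEFs 2, the WT log2 differences were 1.36 for Ubn2, 1.28 for Asf1a, 0.65 for Atrx and -0.75 for Dek, all passing in edgeR, and 0.69 for Cabin1 (edgeR adjusted p = 0.0746). Without KO MEFs 3 and KO neurospheres 2, the KO values were 0.80 for Ubn2, 1.17 for Cabin1, 1.20 for Asf1a and 0.43 for Atrx, all passing, and -0.51 for Dek (edgeR adjusted p = 0.130).

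The level of genes of dividing cells moved with the cell type and varied among neurosphere lines. The mean log2 CPM of 13 cycling genes was 6.86 to 7.58 in the 8 MEF lines, and 4.00, 5.29 and 5.92 in WT and 4.61, 2.88 and 6.94 in KO neurospheres 1 to 3. KO neurospheres 3, the neurosphere line with the highest cycling level, was also the one with the lowest Asf1a, Ubn2, Ubn1 and Atrx and the highest Dek and Asf1b. KO neurospheres 2, with the lowest cycling level, had the highest Asf1a and the lowest Asf1b of the 6, and its Dek level, 176 CPM, was level with that of WT neurospheres 1. The cycling level of KO neurospheres 3 lay within the MEF range. In this line Ubn2 (74.9 CPM), Cabin1 (31.9 CPM) and Atrx (642 CPM) were above every MEF line, and Asf1a and Dek lay within the MEF range. These are values of 1 line and are given as a description.

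With the cycling level as a covariate beside genotype and cell type in a fit of all 14 lines, chosen after seeing the data, the log2 differences between the cell types were smaller for all 5 genes. Without the covariate the same fit gave 1.06 for Ubn2, 1.05 for Cabin1, 1.19 for Asf1a, 0.52 for Atrx and -0.88 for Dek (edgeR adjusted p = 4.16e-05, 5.88e-05, 7.58e-05, 0.000491 and 0.000840), and with it 0.56, 0.61, 0.67, 0.36 and -0.30 (adjusted p = 0.0441, 0.0388, 0.0663, 0.0703 and 0.299). Ubn2 and Cabin1 thus passed and Asf1a did not, although its value was the largest of the 3. Asf1b fell by 2.95 without the covariate and by 0.98 with it (edgeR adjusted p = 0.000299 and 0.0206). The covariate has 1 slope for all lines, while the relation differed between the cell types for some genes. Pearson r of log2 CPM with the cycling level was -0.89 for Asf1a, -0.80 for Atrx and -0.88 for Ubn2 over the 6 neurosphere lines, and 0.75, 0.67 and 0.09 over the 8 MEF lines, which span a far narrower range of that level. For Dek it was 0.95 and 0.85, and for Cabin1 -0.69 and -0.67. These values mix both genotypes and are given as a description. Within 1 genotype no member passed once the covariate was entered. Cycling level and cell type overlap in only 1 neurosphere line, so that within these lines the 2 largely cannot be told apart.

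**Figure D4:**
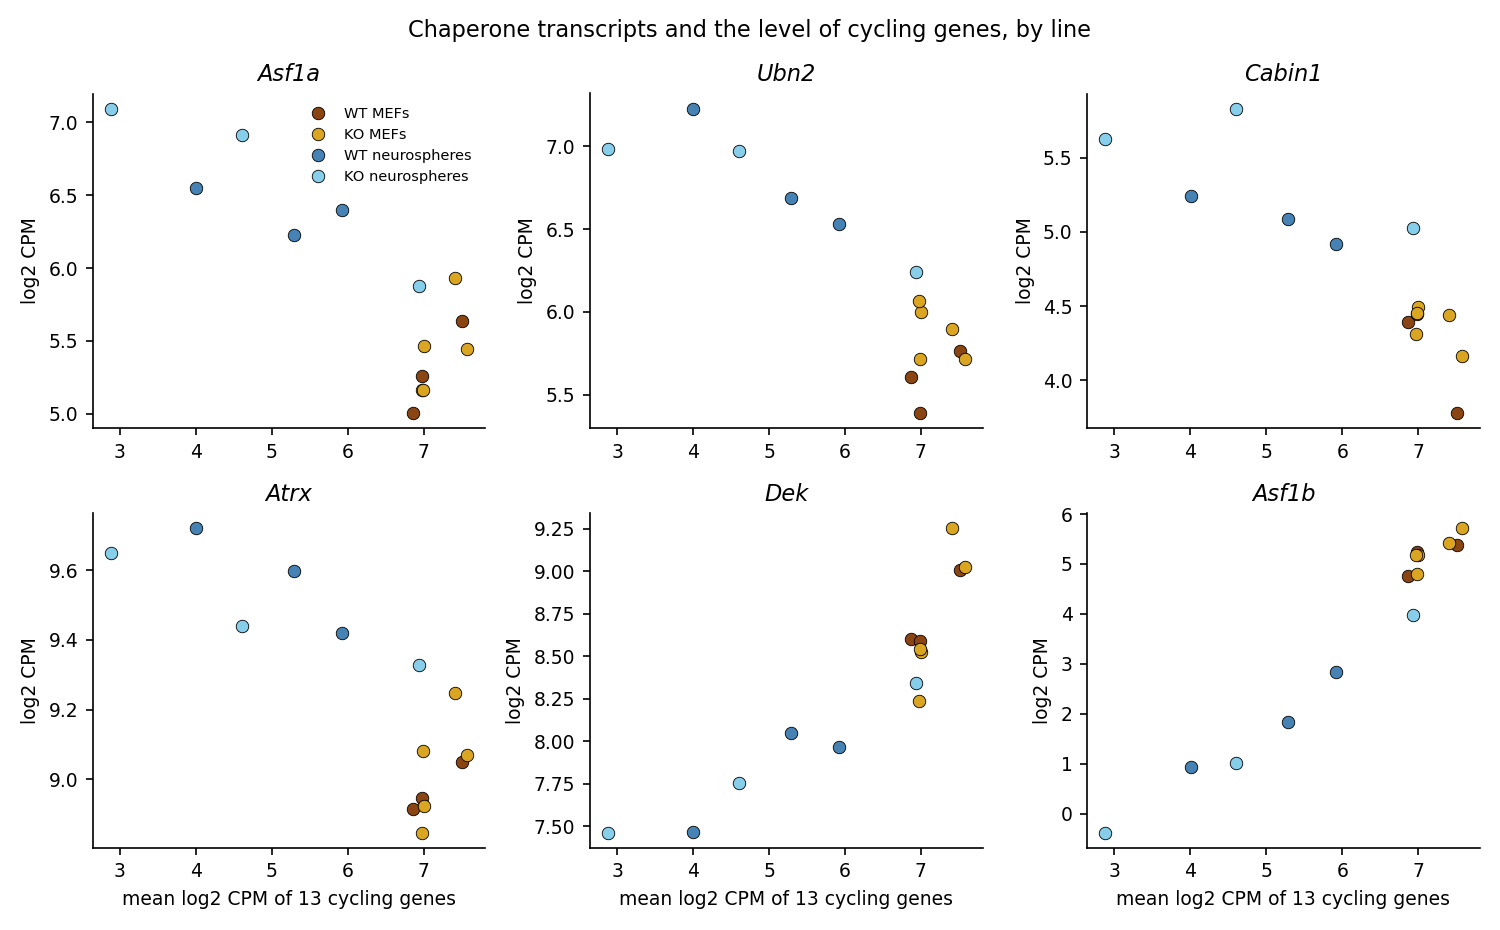
Log2 CPM (prior count 2) of 5 chaperone genes and Asf1b (vertical axes) against the mean log2 CPM of 13 cycling genes (horizontal axis), 1 point per line, coloured by group. MEF lines crowd at the right, between 6.86 and 7.58. Across the neurosphere lines Dek and Asf1b climb while Asf1a, Ubn2 and Atrx descend toward the right, and within the MEF lines Asf1a and Atrx do not descend.

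Other factors of the same routes were compared from lists of their names. The lists held 18 further H3-H4 chaperones, 15 tested partners of DAXX-ATRX and PML bodies and 8 partners and readers on the HIRA side. By edgeR 0 of those tested passed in any KO comparison or in the interaction. Between KO and WT neurospheres only 16 of the 18 chaperones were tested. Of these factors 1, Setdb1, an H3 lysine methyltransferase, had an unadjusted p under 0.05 in 1 of these tests (log2 0.49 over all lines, edgeR adjusted p = 1.00). DESeq2 called 0 of them. Between the cell types in WT lines, 8 of 17 tested H3-H4 chaperones were lower and 0 higher in neurospheres, where 41.6% of all 11080 genes passed, 20.8% lower and 20.8% higher. Among them were Rbbp7, which binds H4 in several complexes (log2 -1.54), Ssrp1, a FACT subunit (-1.13), and Mms22l, which works with TONSL at replication forks (-2.03). In KO lines 9 of 17 were lower and 0 higher, where 51.6% of all 11413 genes passed, 26.2% lower and 25.4% higher. Ipo4, the importin of H3-H4 (-1.65), and Spty2d1 (-1.08) were among those with the smallest p. With both directions counted, the share of the list that passed is near that of all genes in both genotypes. All list genes that passed were lower in neurospheres, a larger share than the 20.8% and 26.2% of all genes that were lower. The median log2 values of the list were -0.95 in WT and -1.08 in KO lines.

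Of the 15 DAXX-ATRX and PML partners, 7 were lower and 1 higher in WT neurospheres, where 20.8% of all genes were lower and 20.8% higher. In KO neurospheres 8 were lower and 1 higher, where 26.2% of all genes were lower and 25.4% higher. Pml, the organiser of the nuclear bodies that hold DAXX, fell by 1.82 and by 1.89, Rad50 by 1.35 and by 1.22, and Hdac1 by 0.99 and by 1.22 on the log2 scale. So Atrx rose and Daxx did not pass where Pml fell, in lines of both genotypes.

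On the HIRA side, Ogt, the enzyme that adds GlcNAc to HIRA among many proteins, rose by 1.55 in WT and 1.58 in KO lines, and Zmynd11, a reader of methylated H3.3, by 0.77 and 0.80. Chd1, a remodeller tied to H3.3 deposition, fell by 0.87 and by 1.12, and Chd2 rose by 0.50 in KO lines and had 0.66 in WT lines without passing (edgeR adjusted p = 0.0835). Thus 2 of 8 were higher and 1 lower in WT lines, and 3 and 1 in KO lines. Of all genes tested, 20.8% were higher and 20.8% lower in WT lines, and 25.4% and 26.2% in KO lines. Of the 13 cycling genes 10 were lower and 0 higher in WT neurospheres, Mcm4 by 2.30. In KO neurospheres 3 were lower and 0 higher, Mcm4 by 1.45 and Tyms by 1.83. The KO neurosphere lines ranged from 2.88 to 6.94 in mean log2 CPM of the cycling genes. Whether these lists share 1 source of variation with the members was not tested.

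Because the kit reads 3′ ends, the annotated transcript given the reads was taken as a guide to the end seen. These are expected counts estimated with Salmon, which divides reads among transcripts that share sequence. Whether the shares below reflect the ends used or that division was not tested. The main end of a gene was taken as the last exon of its most read coding transcript with a stop codon in that exon, together with transcripts whose last exon overlaps it. It held 99.6% of Asf1a reads, 99.9% of Daxx reads, 91.9% of Ubn2 reads, 89.4% of Hira reads and 89.0% of Cabin1 reads over all lines. For Dek it held 75.6%, for Atrx 69.6% and for Ubn1 62.0%. In neurospheres 3 of the 8 genes had WT and KO shares that did not overlap, a pattern singled out after its values were seen. Of all genes tested there with such a main end and reads in every line, 4.06% of 10030 had shares that did not overlap, and 8.01% of the 4606 with under 99% of their reads at it. For Hira the share was 95.3% to 97.5% in WT and 80.7% to 92.4% in KO neurospheres, for Ubn1 63.8% to 66.7% and 49.0% to 62.5%, and for Atrx, in the other direction, 67.4% to 70.2% and 71.3% to 75.7%. The Hira shares rest on few estimated reads outside the main end. Over all lines of a group, Hira-202 held 7.83 in WT and 27.1 in KO neurospheres, and Hira-207 0 and 4.48. In MEFs 0 of 8 genes were separated, against 1.55% of 10171 genes and 3.28% of the 4237 with under 99% there, and the means lay the other way, from 82.7% ± 10.6 to 90.4% ± 6.80 for Hira, from 57.6% ± 8.75 to 65.3% ± 4.62 for Ubn1 and from 73.0% ± 5.48 to 65.6% ± 3.57 for Atrx (WT to KO, SD, n = 3 and 5). With 3 against 3 lines an exact two-sided permutation test cannot give a p below 0.1, so these shares are given as values.

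**Figure D5:**
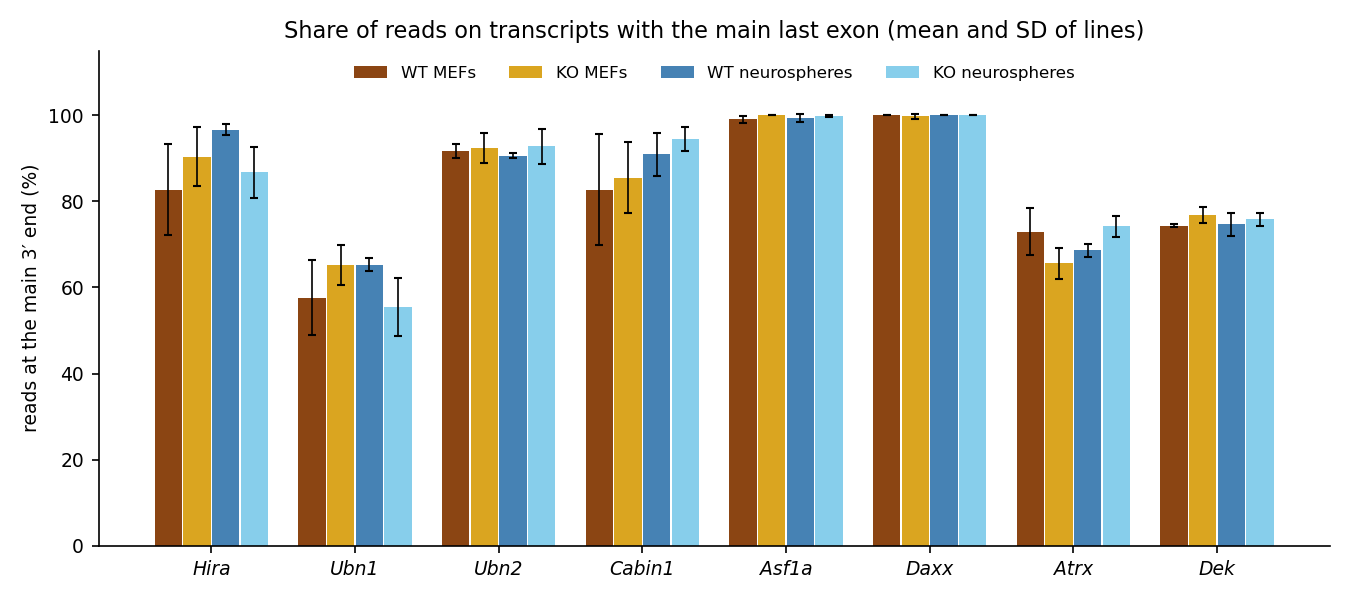
Share of each chaperone gene's reads on transcripts whose last exon overlaps its main last exon, at any end position (vertical axis, percent, starting at 0). Bars are the mean of the lines in each group with the SD as error bar. Asf1a and Daxx are near 100%, and Ubn1, Atrx and Dek are the genes with a sizeable share of reads elsewhere in all 4 groups.

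The reads outside the main end sat on a few internal models. Ubn1-202, a retained-intron transcript, held 36.9% of Ubn1 reads. Atrx-206 and Atrx-222, short coding models whose annotation has no stop codon, held 12.5% and 9.85% of Atrx reads, and Dek-202, of the same kind, 24.3% of Dek reads. In their last 50 bases these models held neither polyadenylation signal searched, AATAAA or ATTAAA. Hira-202, with 9.60% of Hira reads, held AATAAA, and a retained-intron model with 10.4% of Cabin1 reads held ATTAAA. The most read Hira model, at the main end with 60.4%, held neither. Either signal stood in 50.3% of coding and 22.0% of retained-intron transcripts. Whether the reads outside the main end come from true ends or from priming inside the transcript was not tested beyond these letters. Counted at the main end alone, Ubn1 passed between WT neurospheres and WT MEFs (log2 0.65, edgeR adjusted p = 0.0473) and did not in KO lines (0.07, adjusted p = 0.828), the 5 genes named above kept their calls in both genotypes, and no member passed between KO and WT.

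By likeness of pattern, measured as Pearson r of log2 CPM over the 14 libraries among 9039 genes with a mean of at least 10 CPM, Asf1a was closest to Rnf13 and Acadsb (r = 0.98 and 0.97). Ubn2 was closest to Camta1 and Pcdhb20 (0.97 and 0.96), Cabin1 to Cnrip1 and Lrrc8a (0.97 and 0.96), and Atrx to Ubxn7 and Dll1 (0.97 and 0.97). Dek was closest to Kif20b and Knl1, genes of mitosis (0.96 and 0.96). For Ubn1 the closest were Gabarap and Ankrd12 (0.92 and 0.91), for Daxx Slc25a17 and Fbxl14 (0.88 and 0.85), and for Hira 2700049A03Rik and Vps53 (0.75 and 0.74). These values describe 14 libraries of 2 cell types and include the step between them.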

How the data were processed

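QuantSeq 3′ libraries, which read polyadenylated transcript ends in the sense direction, were made from 14 independent lines per the labels. Each deposited file lists, for every transcript, the expected count that the authors estimated with Salmon 1.1.0, per the submitters' processing notes, and the matching TPM, which is scaled by length. Those notes also name edgeR. Not given in the sources used here are the transcript set, genome build and trimming settings.

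Transcripts were matched to GENCODE M21 (GRCm38): 115560 of 116945 by version and length and 385 by identifier, and the rest, with 0.251% to 0.425% of reads, was left out. Expected counts were summed per gene and rounded. Tests used edgeR 4.0.16 in R 4.3.3 (TMM, filterByExpr by group, robust quasi-likelihood, Benjamini-Hochberg over all genes, threshold 0.05), and only the groups compared entered a fit. A log2 value is the fitted difference. CPM levels use 1 TMM scaling over all 14 libraries. Intervals are 95% and cover the spread between lines, and library totals ran from 1669406 to 3296178 counts. Figures were drawn with matplotlib 3.10.9.

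The 8 genes, the gene lists and the rules were chosen with earlier results of these data known. Named genes are the 8 members in every comparison, H3f3a and H3f3b, Asf1b, up to 4 passing genes of each list by smallest p, and for each member the 2 genes most like it. Setdb1 and genes beside overlaps were named after their values were seen. 1 gene of the lists is not reported here. Lists of neuron, endothelial and muscle markers were also measured: in MEFs and neurospheres the neuron markers summed to 83.3 to 182 and 1258 to 1558 CPM, endothelial markers to 5.75 to 33.6 and 6.61 to 15.4 CPM, and muscle markers to 0.719 to 14.3 and 0 to 2.89 CPM.

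Alternatives were DESeq2 1.42.0, its size factors, no filter, a filter at 5 CPM, all libraries in 1 fit, the replicate number as a block, the deposited TPM in limma 3.58.1 (log2(TPM + 1), genes at 1 TPM or more), Ddx3y as a covariate and each line left out. Added after seeing the data were fits without the lines that stand apart, on reads at the main 3′ end, with the cycling-gene level, and with both genotypes together. The labels give replicate numbers but no pairing, and the correlation of same-numbered lines' deviations ran from -0.54 to 0.18, so lines were not paired.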

Additional observations from a re-analysis of the deposited data

How the results depend on the processing

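With 3 to 5 lines a group and 35 to 140 counts for Daxx, Hira and Cabin1, differences of the size left in the intervals were not detectable here. No member passed in any alternative of the KO comparisons or the interaction (0 of 152 values in MEFs, 0 of 128 in neurospheres, 0 of 192 over both and 0 of 192 in the interaction), so changes of sign there are between values that did not pass. Between the cell types 65 of 144 WT and 74 of 152 KO member values passed, and the values of Ubn1, Ubn2, Cabin1, Asf1a, Daxx, Atrx and Dek kept their sign in all of them. The causes of the changes below were not tested.

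Counts of genes called in the KO comparison moved from 1 to 3 in MEFs without the lines that stand apart, and in neurospheres to 7 with DESeq2, to 2 with no filter and to 2 with TPM. The interaction had 3 calls with DESeq2 against 0. Between the cell types the cycling covariate gave 966 calls in WT and 3431 in KO lines, and both genotypes in 1 fit gave 7841. With 1 line left out, the neurosphere KO comparison had 0 to 2 calls: H3f3a did not pass without WT neurospheres 2 or KO neurospheres 1 (edgeR adjusted p = 0.0801 and 0.202).

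With the replicate number as a block, which the labels do not describe as pairing, the MEF comparison had 0 calls (H3f3a log2 -5.81, edgeR adjusted p = 0.0796) and the KO cell type comparison 3295. Atrx had 0.0041 over both cell types, and the interaction -0.043 for Asf1a and -0.13 for Dek. The block ended the cell type calls of Cabin1 (0.92, adjusted p = 0.0705) and Atrx (0.63, adjusted p = 0.0980) in WT lines and of Ubn2 (0.89, adjusted p = 0.0726), Asf1a (1.06, adjusted p = 0.109) and Atrx (0.41, adjusted p = 0.292) in KO lines.

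With TPM, KO minus WT was -0.019 for Hira, -0.14 for Asf1a and -0.10 for Dek in MEFs, 0.29 for Hira, 0.12 for Ubn2 and -0.069 for Dek in neurospheres, 0.11 for Atrx and -0.084 for Dek over both, and the interaction 0.31 for Hira, 0.21 for Ubn1 and 0.070 for Ubn2. Hira was -0.33 between the WT cell types. TPM also ended the cell type calls of Ubn2 (1.00, limma adjusted p = 0.0935) and Cabin1 (0.63, limma adjusted p = 0.132) in WT lines and of Cabin1 (0.67, limma adjusted p = 0.155) and Atrx (0.24, limma adjusted p = 0.284) in KO lines. Without a filter Cabin1 (edgeR adjusted p = 0.0589) and Atrx (0.0582) in WT and Atrx (0.0767) in KO lines did not pass, and with Ddx3y as a covariate Cabin1 in WT lines (0.0547).

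Without the lines that stand apart, KO minus WT was -0.22 for Hira, -0.064 for Cabin1 and 0.013 for Daxx in MEFs and -0.073 for Hira and 0.0015 for Daxx over both, and the interaction 0.31 for Hira, -0.10 for Asf1a and -0.026 for Daxx, while Hira was 0.20 between the KO cell types. Main-end reads gave 0.067 for Ubn1 and -0.083 for Atrx in MEFs, 0.024 for Atrx in neurospheres and 0.088 for its interaction. The cycling covariate gave -0.086 for Dek in MEFs and -0.11 and 0.24 for Hira between the WT and the KO cell types. Atrx over both was 0.00086 with DESeq2 and 0.0019 with its size factors.

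With 1 line left out, KO minus WT in MEFs ran from -0.14 to 0.17 for Dek, -0.12 to 0.42 for Hira, -0.044 to 0.27 for Cabin1, -0.18 to 0.0045 for Daxx and -0.012 to 0.33 for Asf1a. In neurospheres it ran from -0.21 to 0.16 for Ubn2, -0.24 to 0.24 for Dek, -0.10 to 0.10 for Hira and -0.16 to 0.19 for Daxx. Over both it ran from -0.062 to 0.19 for Hira, -0.12 to 0.022 for Daxx, -0.040 to 0.030 for Atrx and -0.080 to 0.12 for Dek. The interaction ran from -0.44 to 0.11 for Hira, -0.25 to 0.21 for Dek, -0.11 to 0.26 for Daxx and -0.052 to 0.47 for Asf1a. Hira between the cell types ran from -0.13 to 0.42 in WT and -0.10 to 0.11 in KO lines.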
